A study of Mus musculus with 12 samples.

Results

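Lgr5-high cells were compared with Lgr5-low cells within the Mex3a-low gate of the mouse small intestine, on 4 of the 12 arrays of the study. These are the arrays labelled with the populations Mex3a Low Lgr5 High (2 arrays) and Mex3a Low Lgr5 Low (2 arrays), each with 1 array from biological replicate MR793 and 1 from MR820. The remaining 8 arrays hold the Mex3a-negative and Mex3a-high cells, again Lgr5-high and Lgr5-low, from the same 2 replicates. All 6 populations were untreated primary cells, and each sample was RNA from 2000 cells, amplified over 22 cycles before hybridisation. The labels give no strain, genotype or age, and do not say how the cells were isolated or how MEX3A and LGR5 were read, so the gates are described here only by their names. Nothing in the labels says whether MR793 and MR820 are single animals or pools. The p-values therefore measure the spread between these samples.

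Lgr5 encodes a receptor for R-spondins and is the standard marker of the dividing stem cells at the base of the intestinal crypt. These cells are kept by Wnt signalling, and their daughters become absorptive enterocytes or secretory cells, namely goblet, Paneth, enteroendocrine and tuft cells. Enteroendocrine cells release hormones into the blood, and tuft cells sense luminal content and make lipid mediators and cytokines. Mex3a encodes an RNA-binding protein that has been used to divide Lgr5-positive cells into subsets. Values are the deposited log2 expression values, and a difference is Lgr5-high minus Lgr5-low on that scale, so that 1 unit is a 2-fold change. Differences are given with the standard error (SE) of the limma fit, with n = 2 arrays in each population.

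The arrays had epithelial profiles. Epcam, an epithelial adhesion protein, lay between 12.31 and 12.39 on the 4 arrays, where the array medians were 5.83 to 5.89. All 5 epithelial markers were above the array median on all 4 arrays. Of the immune markers, Ptprc (CD45) and Cd3e were below the array median on all 4 arrays, and so were the stromal marker Pdgfra and the endothelial marker Pecam1. Cd79a, Cd68 and Col1a1 were above it on all 4, without separating the Lgr5 gates by more than 0.16. All 5 stem cell markers, among them Olfm4 and Smoc2, were above the array median in both populations, so the Lgr5-low cells also carried stem cell transcripts. All 5 measured enterocyte and all 4 measured Paneth markers were above it on all 4 arrays too. So were 3 of 4 goblet, 3 of 6 enteroendocrine and 3 of 5 tuft markers. Lying above the median therefore does not tell these cell types apart.

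Across genes the 2 Lgr5-high arrays correlated at 0.993 and the 2 Lgr5-low arrays at 0.990. Both Lgr5-high arrays were on strip 1, whereas the Lgr5-low arrays were on strip 3 (MR793) and strip 2 (MR820). No strip held both populations, so a within-strip value cannot be given, and strip and Lgr5 gate cannot be told apart among these 4 arrays. One array outside the comparison stood apart, that of the Mex3a-high Lgr5-high cells of MR793, which correlated with the other 11 arrays at 0.896 to 0.916. The other 11 correlated among themselves at 0.971 to 0.996. With the strip as a block, the strip terms rest on populations whose MR793 and MR820 arrays lay on different strips. They therefore hold replicate differences too. Strip 1 was set against strip 2 by the Lgr5-high arrays of Mex3a-high and Mex3a-negative cells. The array that stood apart therefore enters the strip-block differences. In the main fit it does not change any difference reported for Mex3a-low cells, but it widens the spread that all 12 arrays share. The median residual standard deviation was 0.220 with it and 0.116 without it. Adjusted p-values are given both ways for some of the genes whose call changes. The calls of Neurod1, Utrn, Ptpro and Grb7 below also change without it, from not passing to passing.

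Lgr5 itself was 10.21 and 10.04 in the Lgr5-high arrays of MR793 and MR820, and 7.14 and 7.39 in the Lgr5-low arrays. The groups did not overlap, and the gap was 3.07 in MR793 and 2.65 in MR820. The mean difference was 2.86 (SE 0.40), with a limma adjusted p of 0.0711 over all 12 arrays and of 0.0036 without the array that stood apart. This gene checks the labels, since the populations were named by it. Mex3a read 5.79 and 5.63 in the Lgr5-high arrays and 5.64 and 5.48 in the Lgr5-low arrays. Its difference of 0.15 (SE 0.19, limma adjusted p 1.00) was smaller than its error, and all 4 readings were below the array medians.

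Of 17097 genes, 8 passed the test (limma, adjusted p under 0.05), which is 0.0468% of the genes. Esr1 rose in Lgr5-high cells (1 gene, 0.00585%), and 7 genes (0.0409%) fell, namely Gip, Sh2d6, Dclk1, Fut2, Alox5ap, Vwa5b2 and Avil. The genes that fell include an enteroendocrine hormone and defining genes of tuft cells. By size, 96 genes were more than 2-fold lower and 17 more than 2-fold higher in Lgr5-high cells in both replicates. These counts use the same arrays as the test and are not independent of it. In MR793 alone 221 were lower and 46 higher by this rule, and in MR820 alone 110 and 30. At an unadjusted p under 0.05 there were 510 genes, fewer than the 855 that would pass by that rule if no gene differed. That count was 1801 with the 4 Mex3a-low arrays alone and 1965 with the 8 Mex3a-low and Mex3a-negative arrays. Without the array that stood apart 28 genes (0.164%) passed, 8 higher (0.0468%) and 20 lower (0.117%), and they held all 8 of the first set. With the 4 Mex3a-low arrays alone 57 (0.333%) passed, 11 higher (0.0643%) and 46 lower (0.269%), and they held 7 of the 8, all but Alox5ap. With the strip as a block, which borrows strip differences from the other gates, 1 gene (Gip, 0.00585% of all) passed. When 1 of the Lgr5-high arrays was left out, MR793 or MR820, 0 passed, and when a Lgr5-low array was left out, 1 passed without MR793 (Dclk1) and 20 without MR820.

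The windows around the start sites of these genes were read from RefSeq (GRCm38.p6), 250 bases before to 50 bases after each start. They are shown because genes that moved together were searched for short motifs of the factors that act in stem and secretory cells. The stretch before the start is printed for Sp5, a Wnt target higher in Lgr5-high cells (chr2:70474673-70474922, plus strand), for the tuft cell gene Dclk1 (first of its windows, chr3:55242114-55242363, plus strand) and for the hormone gene Gip, which had the largest difference (chr11:96024295-96024544, plus strand). Capitals mark a match to CTTTGAT, a TCF/LEF motif.
Sp5: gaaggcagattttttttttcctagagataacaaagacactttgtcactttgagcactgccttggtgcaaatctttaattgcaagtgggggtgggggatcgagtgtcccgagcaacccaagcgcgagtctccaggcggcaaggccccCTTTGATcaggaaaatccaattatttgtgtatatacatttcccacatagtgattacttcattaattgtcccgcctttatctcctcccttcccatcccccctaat
Dclk1: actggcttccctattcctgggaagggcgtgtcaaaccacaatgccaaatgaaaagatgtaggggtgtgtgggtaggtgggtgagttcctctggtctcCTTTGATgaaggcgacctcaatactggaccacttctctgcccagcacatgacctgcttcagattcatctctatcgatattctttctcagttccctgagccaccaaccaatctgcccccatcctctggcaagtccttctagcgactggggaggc
Gip: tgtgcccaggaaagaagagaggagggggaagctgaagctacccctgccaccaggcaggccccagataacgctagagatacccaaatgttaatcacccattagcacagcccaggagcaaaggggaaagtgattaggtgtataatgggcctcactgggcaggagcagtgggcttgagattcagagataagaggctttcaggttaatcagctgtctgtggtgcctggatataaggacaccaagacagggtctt

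The match begins at base 147 of the window in Sp5 and at base 98 in Dclk1, and none of the searched motifs was found in the Gip window. Of the 14 genes listed in each direction (below called the higher and the lower genes), 11 had a window in either direction, with 14 windows each. CTTTGAT, read on both strands, was in 1 of 14 windows of the higher genes (Sp5) and in 2 of 14 of the lower genes (Dclk1 and Tph1), and in 3.73% of all 32851 windows. CATCTG, an E-box that NeuroD factors bind, was in 1 window of the higher genes (Gas6) and in 0 of the lower genes, and in 17.2% of all windows. ATGCAAAT, the octamer of POU factors, was in none of these windows and in 1.74% of all. No window of these genes held matches to more than 1 of the motifs. A match is a description of letters and shows no binding.

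Esr1, the estrogen receptor alpha gene, was the gene that rose. Its values were 6.95 and 6.91 in the Lgr5-high arrays and 5.14 and 5.05 in the Lgr5-low arrays. The replicates lay close together in either population, and the differences of 1.81 in MR793 and 1.86 in MR820 were nearly equal. The mean difference was 1.84 (SE 0.15, limma adjusted p 0.00896), a 3.57-fold change. With the strip as a block the difference was 1.94 and the adjusted p 0.167.

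The other higher genes were listed by smallest p, and none passed the test over all 12 arrays. Slc14a1, a urea transporter, read 8.07 and 8.17 in Lgr5-high and 6.68 and 6.64 in Lgr5-low cells, a difference of 1.46 (SE 0.22). Its limma adjusted p was 0.0790, and 0.0030 without the array that stood apart. The Wnt feedback inhibitor Axin2 read 10.36 and 10.49 against 9.44 and 9.60, a difference of 0.90 (SE 0.19) that was 0.92 in MR793 and 0.89 in MR820. Sp5, a transcription factor induced by Wnt, read 7.77 and 7.98 against 6.88 and 7.06, a difference of 0.90 (SE 0.19). For both the groups did not overlap, but the limma adjusted p was 0.334 and 0.370. Gkn3, a gastrokine, differed by 1.5 (SE 0.31), Ccdc3 by 1.31 (SE 0.27), the amino acid transporter Slc38a4 by 1.25 (SE 0.30) and the receptor phosphatase Ptpro by 1.17 (SE 0.26). Utrn, the cytoskeletal protein utrophin, differed by 0.99 (SE 0.21), and Gas6, a ligand of the TAM receptor kinases, by 0.92 (SE 0.19). Cd99l2, Zfp113 and the adaptor Grb7 differed by 0.81, 0.63 and 0.58. All of them were above both Lgr5-low arrays in both Lgr5-high arrays, as the plot of values by array shows. Such a separation is common here, since 25.2% of all genes had both Lgr5-high arrays above both Lgr5-low arrays, and 17.9% the reverse. For Slc38a4, Gas6 and Cd99l2 another probe set of the gene differed by only 0.08, 0.10 and 0.24, in the same direction.

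**Figure D1:**
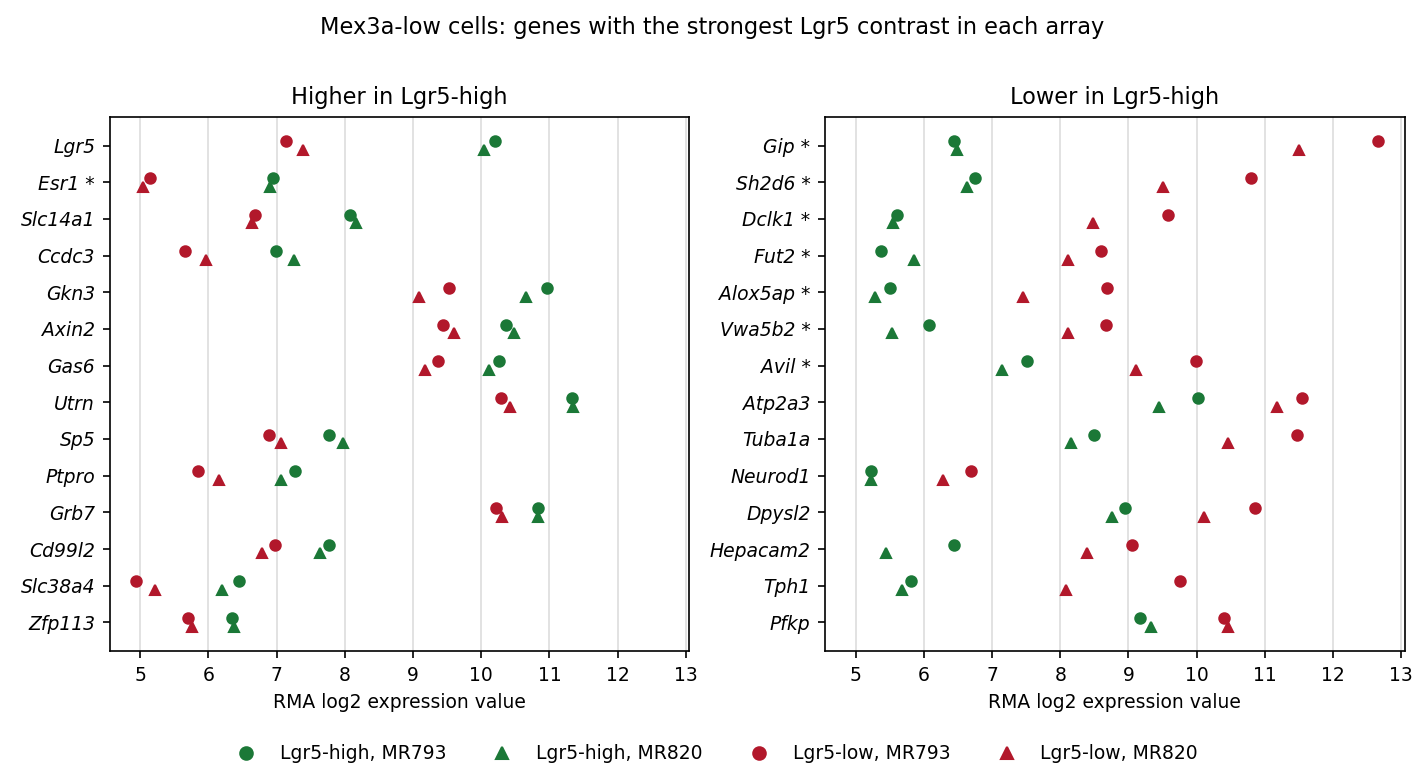
RMA log2 expression value (x axis) of the genes listed as higher (left, after Lgr5) and lower (right) in each of the 4 Mex3a-low arrays; circles are MR793 and triangles MR820, green Lgr5-high and red Lgr5-low, and an asterisk marks an adjusted p under 0.05. Gip spans 6.44 to 12.67, and for most genes on the right the Lgr5-low array of MR793 exceeds that of MR820.

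The hormone gene Gip fell in Lgr5-high cells. Gip, which encodes the incretin hormone GIP of K cells, read 6.44 and 6.48 in Lgr5-high cells and 12.67 and 11.50 in Lgr5-low cells. This was the largest difference of the comparison, -5.62 (SE 0.73, limma adjusted p 0.0467), or 49.2-fold, and it was -6.22 in MR793 and -5.02 in MR820. Vwa5b2, a gene of the enteroendocrine list, read 6.07 and 5.53 against 8.68 and 8.12, and fell by 2.60 (SE 0.32, limma adjusted p 0.0459, or 0.0676 under a replicate block). Tph1, the first enzyme of serotonin synthesis in enterochromaffin cells, read 5.81 and 5.68 against 9.76 and 8.09. Its difference of -3.18 (SE 0.48) missed the threshold with a limma adjusted p of 0.0863, and of 0.0363 without the array that stood apart. Neurod1, a transcription factor of hormone cells, read 5.23 on both Lgr5-high arrays and 6.69 and 6.28 on the Lgr5-low arrays. The difference was -1.26 (SE 0.18, limma adjusted p 0.0790), and -0.42 on its other probe set. Chgb, a granule protein named as a cell type marker, read 8.34 and 6.52 against 12.17 and 11.26, with a difference of -4.29 (SE 0.81, limma adjusted p 0.286).

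Of the 28 measured enteroendocrine genes (of 32 listed), 2 fell (Gip and Vwa5b2) and 0 rose, against 0.0409% and 0.00585% of all genes. The median difference was -1.31, against 0.02 over all genes. Both Lgr5-high arrays were below both Lgr5-low arrays for 20 of 28, against 17.9% of all genes. The list's median was -1.67 in MR793 and -0.65 in MR820, and -0.84 with the strip as a block. The gap between the replicates came from the Lgr5-low side, where the list's mean level was 7.97 in MR793 and 6.85 in MR820, while the Lgr5-high arrays were at 5.85 and 5.79. Gcg, the proglucagon gene, was singled out after its values were seen because its replicates disagreed in sign. It read 10.69 in the Lgr5-low array of MR793 and 4.82 in that of MR820, against 5.26 and 6.26 in the Lgr5-high arrays, so its difference was -5.44 in one replicate and 1.44 in the other. Cck, the cholecystokinin gene, likewise chosen after its values were seen, had a difference of -3.14 in MR793 and only -0.23 in MR820. For both genes the Lgr5-low samples lay further from each other than the gates did on average.

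Tuft cell genes gave 4 of the 7 genes that fell. Dclk1, a kinase and the usual marker of intestinal tuft cells, read 5.60 and 5.55 in Lgr5-high cells and 9.59 and 8.48 in Lgr5-low cells. It fell by 3.46 (SE 0.32, limma adjusted p 0.00990). All 8 of its probe sets had the same sign, with differences from -3.46 to -0.46, so the one used had the largest. Sh2d6, an adaptor found in tuft cells, read 6.74 and 6.63 against 10.80 and 9.51, and fell by 3.47 (SE 0.38, limma adjusted p 0.0241). Alox5ap, which activates 5-lipoxygenase in leukotriene synthesis, read 5.51 and 5.28 against 8.68 and 7.46, and fell by 2.67 (SE 0.33, limma adjusted p 0.0459). Avil, the actin-binding protein advillin, read 7.51 and 7.14 against 9.99 and 9.11, and fell by 2.22 (SE 0.28, limma adjusted p 0.0467). The Lgr5-high arrays lay below both Lgr5-low arrays for each of these genes, and the Lgr5-low array of MR793 was the highest each time. The cation channel Trpm5, named as a marker, differed by -2.13 (SE 0.38, limma adjusted p 0.222, or 0.0138 under a replicate block), and the factor Pou2f3 by -0.83.

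Of 22 measured tuft cell genes (of 25 listed), 4 fell and 0 rose, against 0.0409% and 0.00585% of all genes. The median difference was -0.97, with -1.39 in MR793 and -0.71 in MR820. Both Lgr5-high arrays were below both Lgr5-low arrays for 16 of 22, against 17.9% of all genes. In RNA from pools of cells, fewer tuft or hormone cells and less of these transcripts per cell cannot be told apart, and this holds for every cell type list here. Fut2, the fucosyltransferase that adds terminal fucose to mucosal glycans, is in none of the lists. It read 5.38 and 5.85 against 8.59 and 8.11, and fell by 2.74 (SE 0.29, limma adjusted p 0.0234).

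The remaining lower genes were listed by smallest p and missed the threshold over 12 arrays. Hepacam2, an adhesion protein of secretory cells, read 6.45 and 5.45 against 9.05 and 8.39, a difference of -2.77 (SE 0.42, limma adjusted p 0.0838). Tuba1a, an alpha-tubulin, differed by -2.64 (SE 0.38), the cytoskeletal regulator Dpysl2 by -1.62 (SE 0.24) and the calcium pump Atp2a3 by -1.62 (SE 0.22). Pfkp, a phosphofructokinase of glycolysis, differed by -1.18 (SE 0.20). All 5 were lower in both Lgr5-high arrays, and all 5 passed without the array that stood apart, with limma adjusted p-values of 0.0337, 0.0233, 0.0233, 0.0162 and 0.0162.

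Genes of the secretory progenitor were mostly lower in Lgr5-high cells. Of 17 secretory progenitor genes, none passed the test and 12 were lower in both Lgr5-high arrays, against 17.9% of all genes. Their median difference was -0.46 (-0.77 with the strip as a block). Nkx2-2, a factor of the endocrine lineage, read 5.14 and 5.05 against 6.98 and 6.86, and Insm1, a factor of the same lineage, 6.90 and 6.23 against 8.64 and 8.72. Their differences were -1.83 (SE 0.48) and -2.11 (SE 0.55), with limma adjusted p-values of 0.687 and 0.702 that became 0.0004 and 0.0041 without the array that stood apart. Gfi1 and Spdef, factors of the goblet and Paneth branches, differed by -0.84 and -0.87. The list shares 4 genes with the enteroendocrine list, so the pair of medians is not independent.

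**Figure D2:**
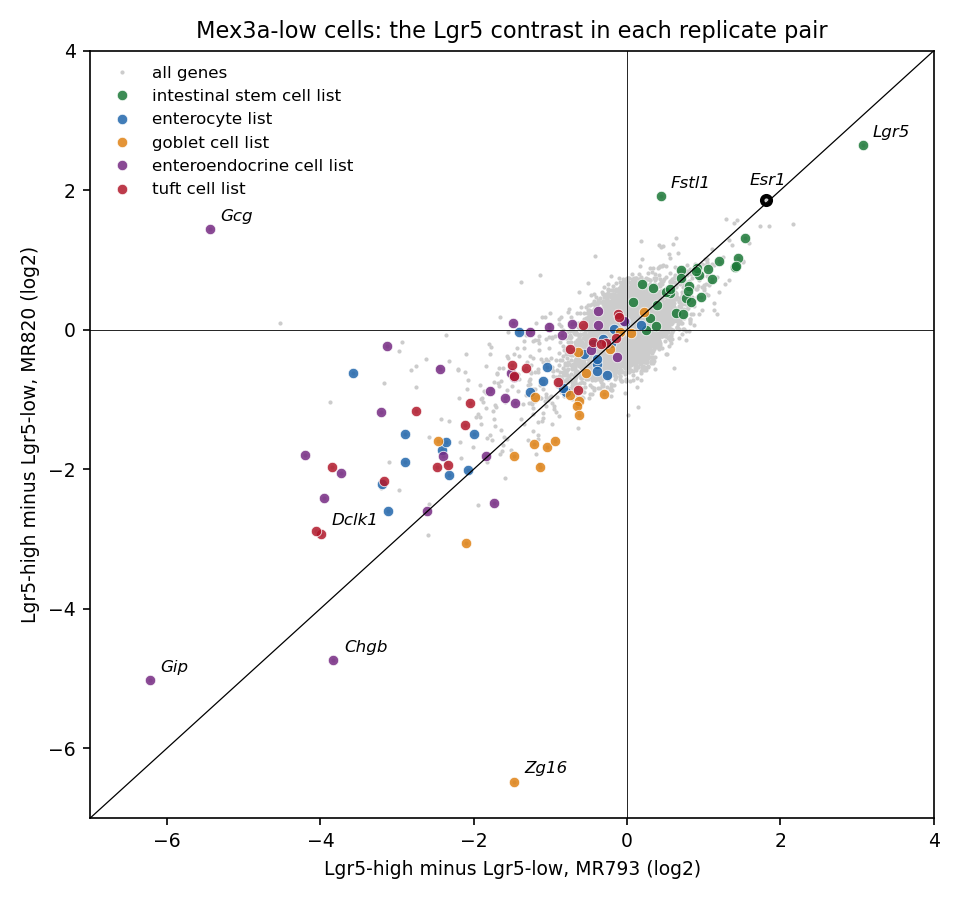
Lgr5-high minus Lgr5-low log2 difference in MR793 (x axis) and in MR820 (y axis) for all 17097 genes (grey) with 5 lists in colour and Esr1 in black; the diagonal line marks equal differences. Most enteroendocrine and tuft cell genes lie above the diagonal on the left, where the MR793 difference is larger, and Zg16 and Gcg lie far from it.

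Goblet cell genes were lower in Lgr5-high cells, with none of 20 past the test. The median difference was -0.90, and 17 of 20 were lower in both Lgr5-high arrays, against 17.9% of all genes. Tff3, a trefoil peptide of mucus, read 12.43 and 11.98 against 13.06 and 12.99, a difference of -0.82, so its level was high on all arrays. Agr2, a disulfide isomerase needed for mucin production, differed by -1.42, the mucus protein Fcgbp by -1.55 and guanylin (Guca2a) by -1.64 (SE 0.35, limma adjusted p 0.372). Zg16, a mucus lectin named as a marker, read 11.18 and 5.16 in the Lgr5-high arrays and 12.65 and 11.64 in the Lgr5-low arrays. Its difference was -1.47 in MR793 and -6.48 in MR820, and its SE of 1.83 reflects that spread. Clca1 read 9.85 and 7.64 against 11.96 and 10.70, again lowest in the Lgr5-high array of MR820.

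Enterocyte genes were also lower, with none past the test and a median difference of -0.84. Of 27, 23 were below in both Lgr5-high arrays, against 17.9% of all genes. Krt20, a keratin of mature surface cells, read 7.03 and 7.56 against 10.22 and 9.78, a difference of -2.71 (SE 0.49, limma adjusted p 0.222, and 0.0143 with the 4 arrays alone). Apoa1, an apolipoprotein of chylomicrons and HDL, read 8.59 and 9.79 against 11.49 and 11.69, a difference of -2.40 (SE 0.55). Rbp2, which carries retinol in absorptive cells, and the lectin-like gene Clec2h differed by -2.20 and -1.98. With the 4 arrays alone 7 enterocyte genes passed, against 0.333% of all genes.

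Paneth cell genes did not share this direction. Of 21 listed genes 11 were measured, since many defensins are not in the probe table used. Of these 11, 9 were higher in both Lgr5-high arrays, against 25.2% of all genes, and none passed the test. The median difference was 0.63, with 0.56 in MR793 and 0.35 in MR820. It was 0.31 with the strip as a block and 0.048 with replicate block and strip together. Pnliprp2 and Clps, a lipase-related protein and colipase, differed by 1.44 (SE 0.47) and 1.03 (SE 0.49). Itln1, a lectin, read 12.20 and 12.07 against 11.64 and 11.39, a difference of 0.63 (SE 0.18, limma adjusted p 0.912), and the protease Mmp7 differed by 0.58. Lyz1, the Paneth cell lysozyme, differed by only 0.22. Guca2b, singled out after its values were seen, was the member lower in both Lgr5-high arrays, with a difference of -0.54.

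Stem cell genes were higher in the Lgr5-high cells as a group. All 31 measured members (of 37 listed) had a positive difference. Both Lgr5-high arrays were above both Lgr5-low arrays for 27, against 25.2% of all genes. The median was 0.72, with 0.76 in MR793 and 0.63 in MR820, and none passed the test over 12 arrays. Lgr5, which named the gates, is among them. Ascl2, a transcription factor of crypt base stem cells, differed by 0.86, Rnf43, a ubiquitin ligase that removes Wnt receptors, by 1.09 (SE 0.27), and Smoc2 by 0.61. Olfm4, an abundant secreted protein of crypt base cells, read 13.02 and 12.82 against 12.78 and 12.83, a difference of 0.12 with overlapping groups. Fstl1, singled out after its values were seen, had differences of 0.44 (MR793) and 1.91 (MR820). The gap between the gates for these stem cell genes was thus far smaller than that for Lgr5.

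**Figure D3:**
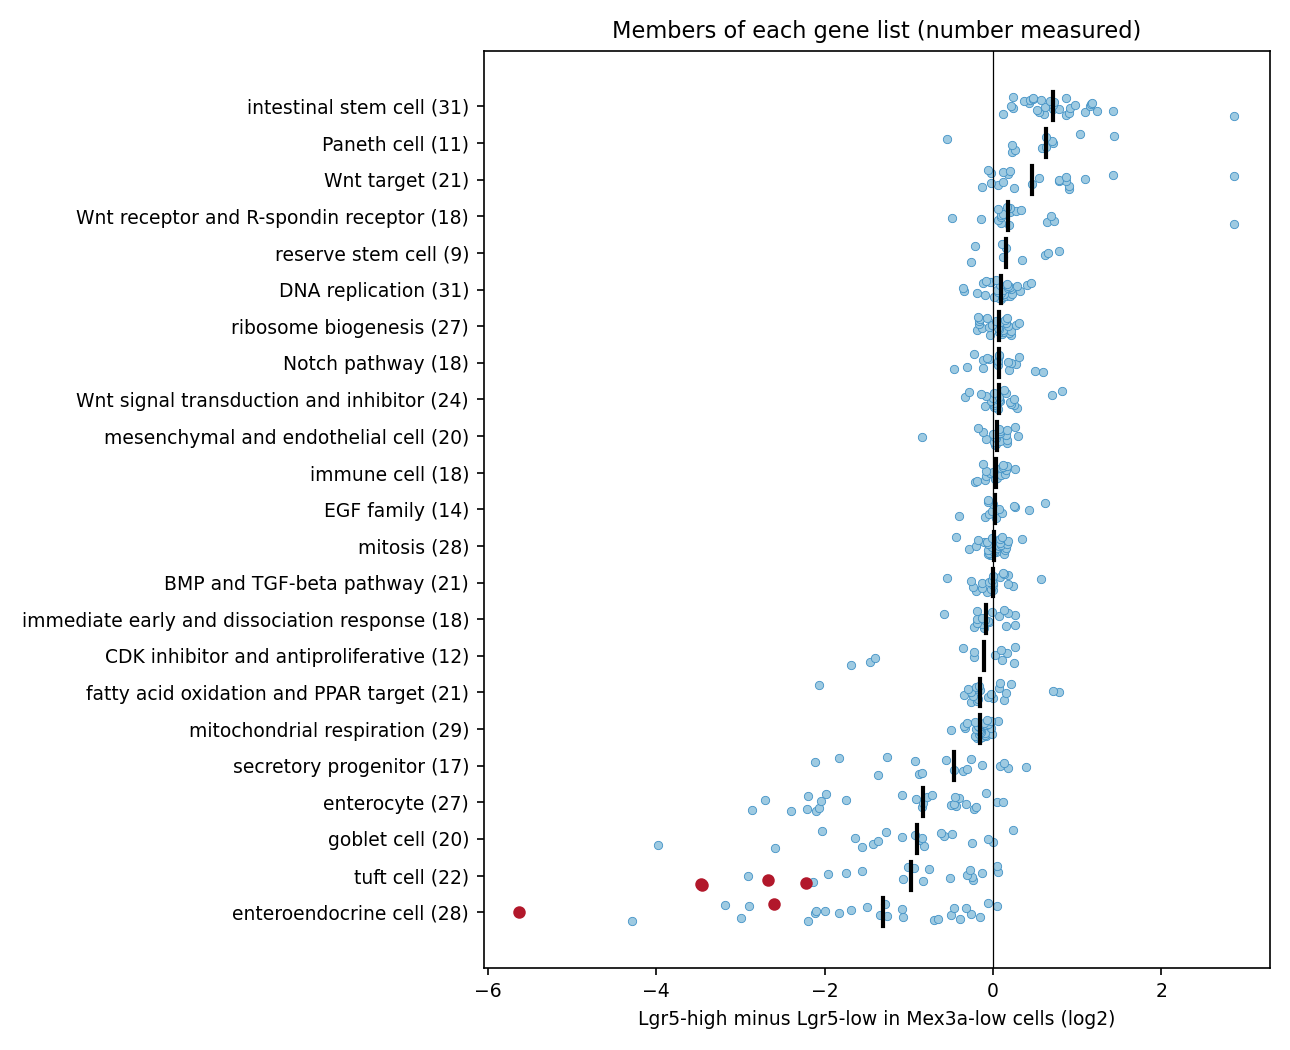
Lgr5-high minus Lgr5-low log2 difference (x axis) of every measured member of 23 lists (rows, number measured in brackets); black bars are medians and red points passed the test. Medians run from -1.31 for enteroendocrine genes to 0.72 for stem cell genes, and most signalling and cell cycle lists centre near 0.

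The Wnt pathway was read by role. Of 18 receptor genes, 12 were higher in both Lgr5-high arrays, with a median of 0.18 (0.06 with the strip as a block), and Fzd7, Fzd1 and Fzd2 differed by 0.69 (SE 0.18), 0.64 (SE 0.19) and 0.73 (SE 0.35). Of 24 genes of transduction and inhibition, 7 were higher in both, a share near the 25.2% of all genes, with a median of 0.07 (0.21 with the strip as a block). The corepressor Tle3 and the secreted inhibitor Sfrp5 differed by 0.70 (SE 0.21) and 0.82 (SE 0.26). Of 21 target genes, 14 were higher in both and the median was 0.47, and 8 of these targets are also in the stem cell list. None of these genes passed the test over all 12 arrays. For Fzd2 another probe set differed by only 0.08.

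Of 18 Notch pathway genes, 11 had a positive and 7 a negative difference, with a median of 0.07 and none past the test. Among those with the smallest p, the receptors Notch1 and Notch2 differed by 0.59 and 0.50 and the modifying enzyme Lfng by 0.31, while the ligand Dll1 differed by -0.46. The 9 reserve stem cell genes had a median of 0.15 (0.42 with the strip as a block) and ran from -0.26 to 0.78. Sox9, Clu and Lrig1 were the highest, at 0.78, 0.65 and 0.61. Sox9, a transcription factor of crypt cells, passed without the array that stood apart (limma adjusted p 0.0401). Among BMP and TGF-beta genes, Bmp7 differed by 0.56 (0.10 on another probe set) and Bmp2 by -0.55, with a median of 0.00 over 21 genes. Nrg4 and its receptor family member Erbb3 differed by 0.43 and 0.25, and the EGF family median was 0.02.

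The median over 28 mitosis genes was 0.01 and that over 31 DNA replication genes 0.09, close to the 0.02 of all genes, and none passed the test. The extremes by p were Anln, an anillin of the cleavage furrow, at -0.44, and the histone chaperone subunit Chaf1b at 0.45, where 1 of 2 probe sets had that sign. With the strip as a block the medians were 0.12 and 0.44, against -0.07 over all genes. Of the 12 CDK inhibitor and antiproliferative genes, 6 had a positive and 6 a negative difference, with a median of -0.10 (-0.35 with the strip as a block) and none past the test. The 3 with the smallest p were lower in both Lgr5-high arrays, and 1 of the 12 was higher in both. Over all genes 17.9% were lower and 25.2% higher in both. Cdkn1c (p57) read 5.52 and 5.43 against 7.41 and 6.47, a difference of -1.46 (SE 0.27, limma adjusted p 0.222). Cdkn1a (p21) and Cdkn2b (p15) differed by -1.69 (SE 0.53) and -1.41 (SE 0.49).

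Other lists stayed close to all genes or moved when the strip was fitted as a block. Of 29 mitochondrial respiration genes, 23 were lower in both Lgr5-high arrays, against 17.9% of all genes. Their median was -0.16, led by Cycs and Sdhd at -0.35 and -0.50. With the strip as a block the list's median was 0.11, so its direction depends on whether that block is fitted. The median of the fatty acid oxidation list went from -0.15 to 0.02 and that of the mesenchymal list from 0.05 to -0.30 under the same block, and that of the immune list from 0.03 to -0.30. Ribosome biogenesis genes had a median of 0.08. The mean level of the immune list was 6.10 and 6.20 in the Lgr5-high and 6.17 and 6.08 in the Lgr5-low arrays. Vim, the filament protein vimentin, had a difference of -1.43 in MR793 and -0.26 in MR820. Immediate early genes, which respond to tissue dissociation, had a mean level of 9.18 and 9.31 in the MR793 arrays and 8.21 and 8.18 in the MR820 arrays. The levels were higher in MR793 in both gates, and the median difference between the gates was -0.08.

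The same Lgr5 contrast was then set beside that of the other Mex3a gates. Mex3a itself differed little between these gates outside the array that stood apart. In Lgr5-low cells its mean was 5.52 (Mex3a-negative), 5.56 (Mex3a-low) and 5.64 (Mex3a-high). In Lgr5-high cells it was 5.81, 5.71 and 6.09, the last from 6.35 on the array that stood apart and 5.84 in MR820. In Mex3a-negative cells the enteroendocrine and tuft cell lists had medians of 0.01 and -0.00, and in Mex3a-high cells of -2.91 and -2.77, against -1.31 and -0.97 in Mex3a-low cells. The stem cell list was at 0.84, 0.50 and 0.72 in Mex3a-negative, Mex3a-high and Mex3a-low cells, and at 0.85 in Mex3a-high cells without the array that stood apart. Enterocyte genes had a median of -0.10 in Mex3a-negative and -0.84 in Mex3a-high cells. Genes past the test numbered 0 in Mex3a-negative cells (limma, 371 at an unadjusted p under 0.05) and 234 (1.37%) in Mex3a-high cells, where the array that stood apart enters the difference.

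Dclk1 differed by -0.38 in Mex3a-negative and -3.67 in Mex3a-high cells, Sh2d6 by -0.58 and -3.0, and Fut2 by -0.29 and -3.80. Gip differed by 1.32 in Mex3a-negative and by -4.34 in Mex3a-high cells. Without the array that stood apart its difference in Mex3a-high cells was -5.59, close to the -5.62 of Mex3a-low cells. The difference of the Lgr5 contrast between Mex3a-low and Mex3a-negative cells was -6.94 (SE 1.03) for Gip and -3.08 (SE 0.45) for Dclk1, both with a limma adjusted p of 0.562. Over all genes 0 passed this test (limma, 120 at an unadjusted p under 0.05). Without the array that stood apart 2 passed (0.0117%), Gip and Nkx2-2, both with a limma adjusted p of 0.010. Axin2 differed by 0.99, 0.90 and 1.08 in Mex3a-negative, Mex3a-low and Mex3a-high cells. Esr1 differed by 1.33, 1.84 and 0.76, and the gap between Mex3a-low and Mex3a-high cells was 1.08 (limma adjusted p 0.269).

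**Figure D4:**
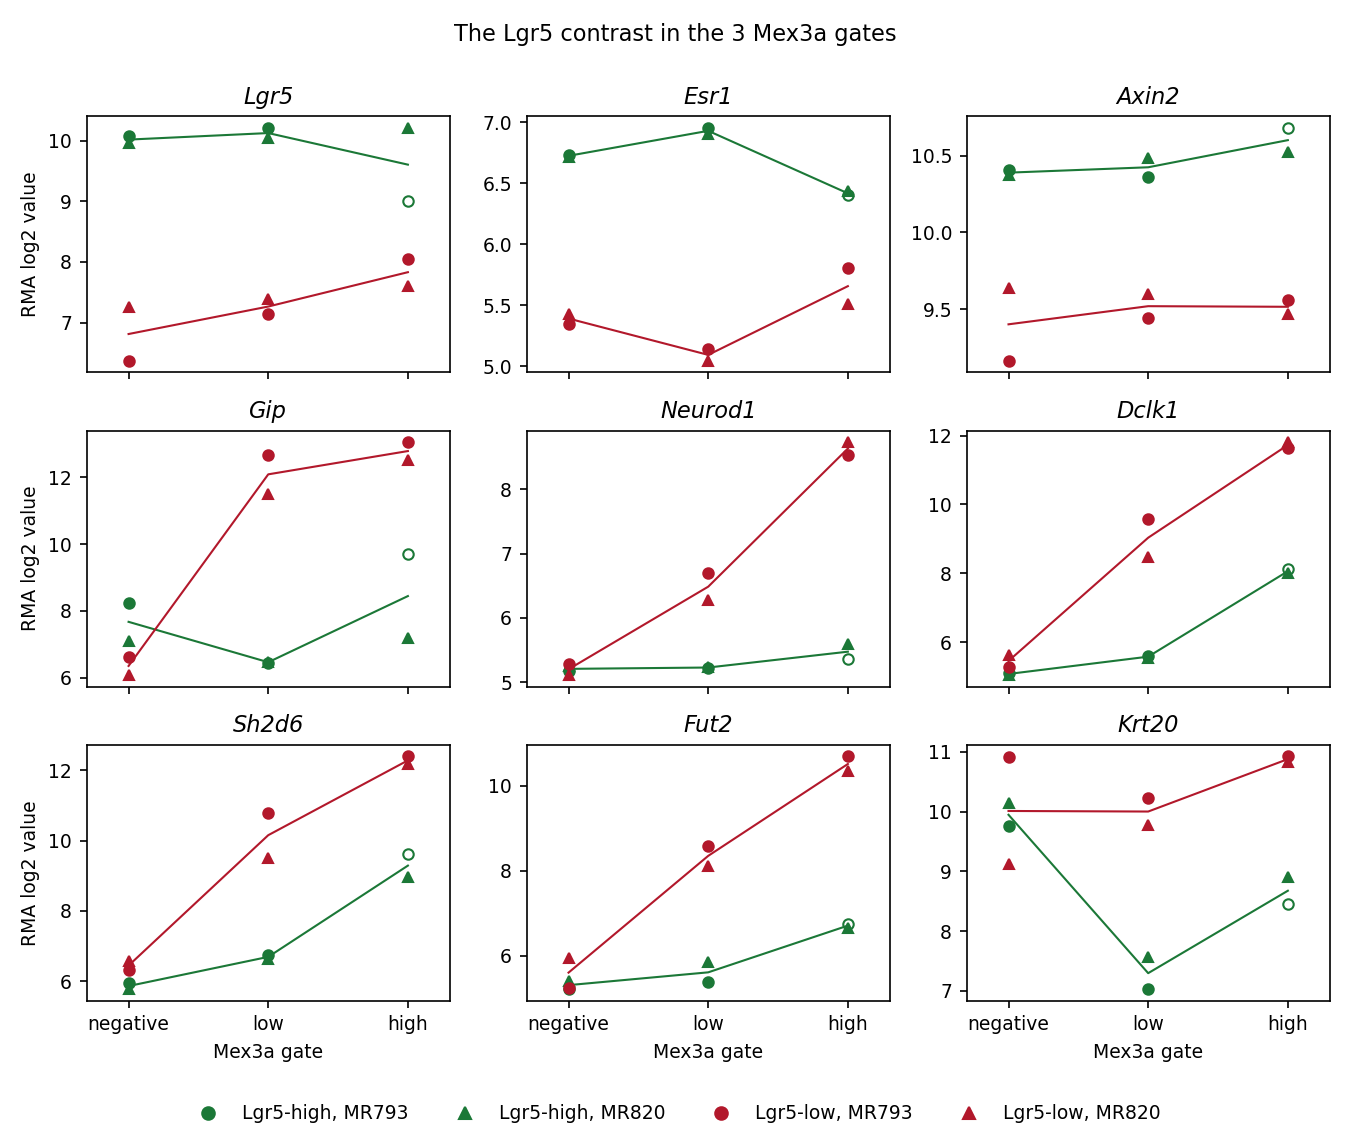
RMA log2 value (y axis) of 9 genes in the 3 Mex3a gates (x axis), with green for Lgr5-high and red for Lgr5-low, circles for MR793, triangles for MR820 and lines through the means; the open circle is the array that stood apart. In Dclk1, Sh2d6 and Fut2 the Lgr5-low arrays of Mex3a-low cells lie between those of the other gates.

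Against Mex3a-high cells, 13 genes passed the test of the difference (0.076% of all), all with a less negative Lgr5 contrast in Mex3a-low cells, and 6 passed under a replicate block, Neurod1, Nebl and Bmx not among them. The one on the enteroendocrine list was Neurod1, which differed by -1.26 in Mex3a-low and -3.16 in Mex3a-high cells. The one on the tuft cell list was Bmx, a kinase, at -0.76 against -2.81. Both Lgr5-high arrays of Mex3a-low cells and those of Mex3a-high cells sat near the bottom of the scale for Neurod1, and the gap came from the Lgr5-low arrays, as the plot by gate shows.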

How the data were processed

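RNA from 6 populations with 2 biological replicates was hybridised to 12 Affymetrix arrays. The authors deposited log2 expression values per probe set, and per the submitters' processing notes RMA was used, whose version is not stated there. No raw intensities were reprocessed. RMA gives a value to probe sets without signal, so differences between dim genes are compressed. Arrays carry no read depth, and their small number limits the precision.

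Of 45141 probe sets, 28898 had 1 gene in the probe table used and 551 had several. Each of 17097 genes was read by its brightest single-gene probe set, by mean over the 12 arrays. Names come from the probe table, and 28689 of its probe sets matched a RefSeq gene table.

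Each gene was fitted with limma 3.58.1 in R 4.3.3 as 6 population means over all 12 arrays, using eBayes with a mean-variance trend. Residual degrees of freedom were 6 and prior ones 3.44. Benjamini-Hochberg adjustment ran over 17097 genes in each of 5 comparisons. The labels give each population the same pair of biological replicates, which pairs the populations, and the replicate differences of populations correlated over 0.1 in 14 of 15 pairs (lowest -0.115, and 0.417 between the Mex3a-low populations). The main values come without a replicate block, and the value with it is given where it changes a call. Other alternatives were the strip as a block, fewer arrays, quantile normalisation, centring, a filter on dim genes, the mean of a gene's probe sets, no trend and leaving out each array.

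Genes named are Lgr5, Mex3a, the 14 genes in each direction with the largest called difference or, below 14 calls, the smallest p, up to 4 members of each of 23 lists by smallest p, fixed cell type markers, and the genes whose contrast differed most between gates. The members of the comparison and the lists were chosen with earlier results of these data known, so no list count is independent support. The fit was tested on simulated data for the Lgr5 contrast of Mex3a-low cells on 17097 genes. It recovered 43.3% of genes changed by a log2 size of 1, 85.1% at 2 and 98.5% at 3, with 9 false calls. The simulated noise was independent between arrays, with the same spread on every array for a given gene. No array stood apart in it, and it held no strip or replicate effect. These rates therefore need not hold for the real arrays.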

Additional observations from a re-analysis of the deposited data

Results flagged for a closer look

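The Lgr5 contrast differed between Mex3a-low and Mex3a-high cells, by a limma test of that difference, for 6 of the genes named. It was 1.90 higher in Mex3a-low cells for Neurod1 (-1.26 against -3.16, limma adjusted p 0.0477) and 2.43 higher for Camk2b, a calmodulin-dependent kinase subunit (-0.45 against -2.88, limma adjusted p 0.0248). It was 2.55 higher for Fbxl21, an F-box gene (-0.23 against -2.78, limma adjusted p 0.0447), 2.35 higher for Nebl, which encodes the actin-binding protein nebulette (-0.88 against -3.23, limma adjusted p 0.0447), and 2.31 higher for Tmem229a (-0.59 against -2.90, limma adjusted p 0.0248). For Bmx it was 2.05 higher (-0.76 against -2.81, limma adjusted p 0.032). Leaving out the array that stood apart, the limma adjusted p-values were 0.021, 0.017, 0.025, 0.021, 0.017 and 0.0197. With the replicate block they were 0.105, 0.0294, 0.0294, 0.0693, 0.0294 and 0.0692, so Neurod1, Nebl and Bmx missed the threshold. No cause was tested.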

How the results depend on the processing

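With the replicate block the Lgr5 contrast of Mex3a-low cells again called 8 genes, with Trpm5 in place of Vwa5b2 and the other 7 kept. It called 57 genes with the 4 Mex3a-low arrays alone, 24 with the 8 Mex3a-low and Mex3a-negative arrays, 4 (2 higher, 2 lower, among them Lgr5 and Esr1) after quantile normalisation, against 1 higher and 7 lower as reported, 4 without the trend, 1 with the strip as a block and 0 with replicate block and strip together. Leaving out 1 array gave 0 to 28 genes. It was 0 without either Mex3a-low Lgr5-high array, 1 when the MR793 array of Mex3a-low Lgr5-low cells was left out and 20 when their MR820 array was, 28 without either Mex3a-high Lgr5-high array, 4 without either Mex3a-negative Lgr5-low array, and 2 without any 1 of the other 4. The lone array left in a population was then assumed to vary like the others. In Mex3a-negative cells the count of 0 became 5 with 8 arrays, 2 after quantile normalisation and with the mean of probe sets, 1 after centring and with the filter on dim genes, and 0 to 10 leaving out 1 array (10 without the array that stood apart). In Mex3a-high cells it was 145 with the strip, 105 with replicate block and strip, 110 with the filter, and 96 to 10870 leaving out 1 array. The difference from Mex3a-negative cells called 1 gene with the strip, 2 with 8 arrays and 0 to 3 leaving out 1 array. That from Mex3a-high cells called 6 with the replicate block, 8 with the strip, 0 with both, with the filter or without the trend, and 0 to 8187 leaving out 1 array. Leaving out 1 array, the Fbxl21 difference ran from -0.52 to 0.068 and that of Gcg from -4.93 to 0.94, turning positive where the MR793 array of Mex3a-low Lgr5-low cells was left out. List medians turned for mitochondrial respiration (0.11 with the strip, 0.15 with replicate block and strip), fatty acid oxidation (0.021 with the strip, 0.30 with both, 0.07 without the same MR793 array, and 0.13 without the Lgr5-high array of MR820), mesenchymal genes (-0.30, -0.31 and, with the filter, -0.18), immune genes (-0.30 and -0.33 from 0.03), Notch (-0.019 to 0.069 leaving out 1 array, negative without the Lgr5-high array of MR793) and the EGF family (-0.00147 after quantile normalisation). The medians of some lists that started near 0, such as BMP and TGF-beta genes (0.00, and -0.03 with the strip) and immediate early genes (-0.08, and 0.45 with replicate block and strip), also changed sign. The causes were not tested.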
